A study of Mus musculus with 6 samples.

Results

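The Nduf genes encode the nuclear subunits of NADH:ubiquinone oxidoreductase (complex I of the respiratory chain) and a group of its assembly factors. All genes whose symbol starts with Nduf were taken from the count table, 2 exact repeat lines of Ndufb4 and 1 pseudogene symbol ending in -ps were dropped, and 49 of 40428 features remained, all of which passed the filter on low counts. Of these, 36 are established subunits, 8 are Ndufaf assembly factors and 5 are relatives that are not counted as subunits here. The relatives are Ndufa4, now assigned to complex IV, its paralogue Ndufa4l2, and the processed pseudogenes Ndufa11b, Ndufb4c and Ndufs6b. The RNA came from subcutaneous white fat of 3 flox/flox control and 3 ANKO mice, all C57BL/6J, fed regular chow and kept at room temperature. ANKO mice carried adiponectin-Cre with Nampt flox alleles, so that Nampt, the enzyme of the rate-limiting step of NAD salvage, was deleted in cells in which the adiponectin promoter drives Cre, which are mainly adipocytes. The labels used here give no age or sex. Whole tissue was sequenced, so that fewer cells of a type and less RNA per cell cannot be told apart.

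Complex I oxidises NADH to NAD+, passes the electrons to ubiquinone and pumps protons across the inner mitochondrial membrane. Its matrix arm consists of the N module, which binds NADH, and the Q module, which reduces ubiquinone, and its membrane arm has a proximal and a distal part that do the proton pumping. The core subunits carry out the reaction and are encoded partly in the nucleus and partly in the mitochondrial genome (mt-Nd genes), the accessory subunits surround them, and assembly factors help to build the enzyme without staying in it.

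Libraries held 19748962 to 23860596 counts. Counts were scaled to library size as CPM, the usual library-scaled read count, with trimmed-mean (TMM) factors. Nampt stood at 83.6, 93.0 and 87.0 CPM in the control libraries (1, 2, 3) and at 48.6, 50.2 and 47.0 CPM in the ANKO libraries, so the groups did not overlap (log2 fold change -0.85, SE 0.0776, adjusted p = 0.00416, edgeR quasi-likelihood test). The 10 white adipocyte markers reached a sum of 12553, 17150 and 18965 CPM in control tissue and of 5079, 7529 and 6288 CPM in ANKO. Of these markers 5 were lower at an adjusted p under 0.05 with edgeR (7 with DESeq2, 5 with limma-voom), against 1.10% of all genes tested with edgeR. All 10 were detected in every library. The 19 skeletal muscle markers took 1.22%, 0.360% and 1.83% of the counts in controls and 3.60%, 0.607% and 0.0312% in ANKO, and the defining marker Acta1 ranged from 22.5 CPM in ANKO 3 to 3139 CPM in ANKO 1. Of the 18 muscle markers tested none was called, none had an unadjusted p under 0.05 with edgeR, DESeq2 or limma-voom, and Tnnc2 was at 0 in control 2 and ANKO 3. Of 10 macrophage markers 3 were higher in ANKO past the test with edgeR (6 with DESeq2, 2 with limma-voom), against 0.488% of all genes with edgeR. The list had summed levels of 603 to 693 CPM in controls and 857 to 1099 CPM in ANKO. The part of these other cells in the values below was not tested, except where a measurement is given.

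Of the nuclear-encoded complex I subunits 1 of 36 was called lower in ANKO tissue and none higher (adjusted p under 0.05, edgeR). This was Ndufb3, a small accessory subunit of the distal membrane arm. Over all 19272 genes tested, 1.59% were called, 1.10% lower and 0.488% higher, and 1 of 36 is near that background. The median log2 fold change of the 36 subunits was -0.09, against 0.00 over all genes tested. Of these subunits 26 lay below 0, where 49.9% of all genes tested did. None of the 7 nuclear core subunits and none of the 8 assembly factors had an adjusted p under 0.05 with edgeR, DESeq2 or limma-voom, and none had an unadjusted p under 0.05 with any of these tools. Unadjusted p under 0.05 was reached by 3 of 36 subunits, all lower, where 6.90% of all genes tested were lower and 6.03% higher at that level (12.9% in either direction).

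Ndufb3 stood at 37.9, 43.6 and 46.9 CPM in the controls, against 26.6, 28.5 and 26.2 CPM in the knockouts. The lowest control value exceeded the highest ANKO value. The mean fell from 42.8 ± 4.56 to 27.1 ± 1.27 CPM (SD, n = 3), a log2 fold change of -0.66 (SE 0.105, adjusted p = 0.0262, edgeR) or 0.633 of the control level (95% interval 0.536 to 0.749). Ndufb3 made up 2.14%, 2.46% and 2.06% of the summed CPM of all 36 subunits in controls and 1.56%, 1.38% and 1.55% in ANKO. Its call was lost when any library but control 1 was left out (adjusted p = 0.0689 to 0.125, edgeR, with control 1 left out at 0.0272) and when the muscle signal was added as a covariate (log2 fold change -0.65, adjusted p = 0.0758). The gene lies on chromosome 1, 58586384 to 58595964, plus strand (GRCm38), with 3 exons of 763 bases in all and no overlapping annotated gene, while the processed pseudogene Gm45930 matches it with 96.8% identity over 282 bases and was not analysed here.

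A further pair of subunits had groups that did not overlap, both of the proximal membrane arm. Ndufa3 stood at 39.5, 41.3 and 45.6 CPM in controls and 30.4, 34.9 and 32.3 CPM in ANKO (log2 fold change -0.37, SE 0.097, adjusted p = 0.132, edgeR). Ndufa1, a small subunit encoded on the X chromosome, stood at 23.9, 26.6 and 30.3 CPM in controls and 16.6, 22.5 and 17.8 CPM in ANKO (log2 fold change -0.51, SE 0.149, adjusted p = 0.180, edgeR). In both genes all ANKO values were the lower ones, without passing the test over all genes. Groups that did not overlap were thus found for 3 of 36 subunits, all lower in ANKO, against 10.2% of all genes lower and 9.19% higher (19.4% in either direction). The share that was lower is near the background.

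**Figure D1:**
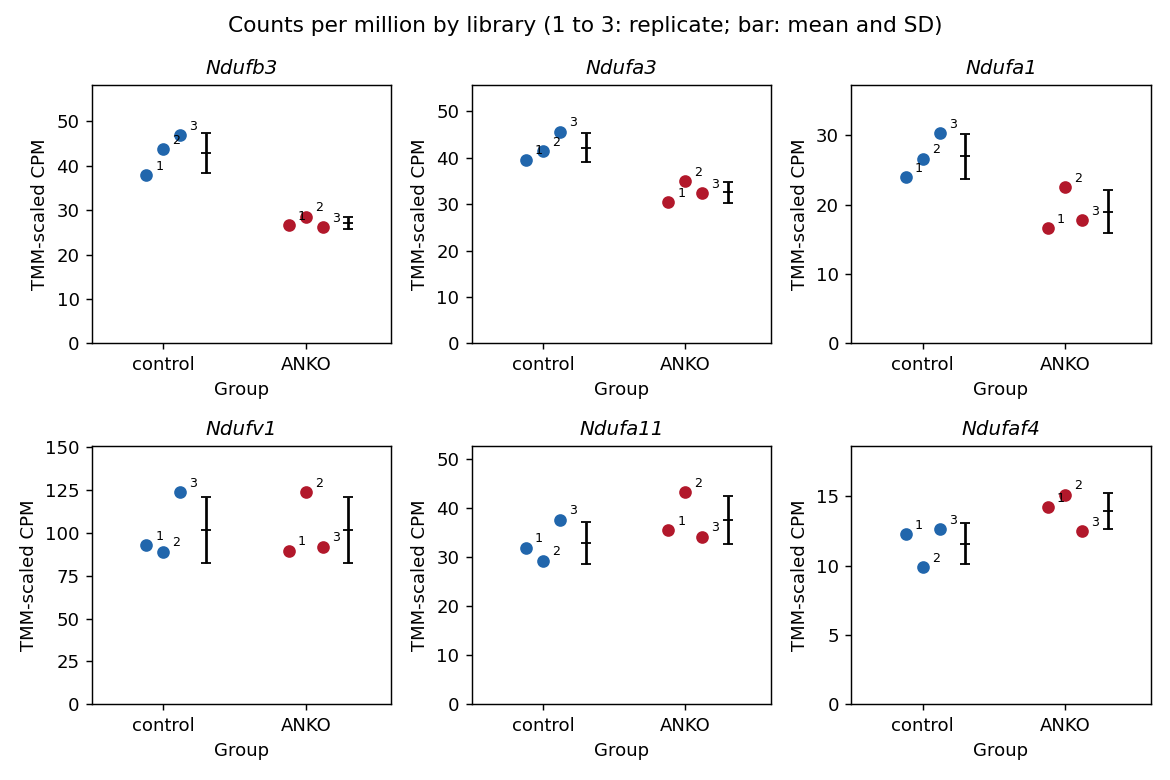
TMM-scaled CPM of 6 complex I genes in each library (points, numbered by replicate) by group, with mean and SD (n = 3) beside them. The groups of Ndufb3, Ndufa3 and Ndufa1 do not overlap, Ndufv1 has the same mean in both groups, and Ndufa11 and Ndufaf4, which overlap between groups, have the highest fold changes of the subunits and of the assembly factors.

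Promoter sequences from RefSeq (build GRCm38.p6, 250 bases before to 50 after the annotated start) were found for 32 of 36 subunits and 7 of 8 assembly factors. The sequences of the 2 subunits with the lowest fold change and of the subunit and the assembly factor with the highest fold change are shown to set the ends of the range side by side. They lie at chr1:58586147-58586446 on the plus strand (Ndufb3), chrX:37191189-37191488 on the minus strand (Ndufa1), chr17:56717512-56717811 on the plus strand (Ndufa11) and chr4:24897833-24898132 on the plus strand (Ndufaf4). Each is written 5′ to 3′ on the gene's strand, and capitals mark exact matches to motifs searched on both strands. The window of Ndufa1 lies wholly upstream of its GENCODE gene model, which reaches to 37191163 on the minus strand.
Ndufb3: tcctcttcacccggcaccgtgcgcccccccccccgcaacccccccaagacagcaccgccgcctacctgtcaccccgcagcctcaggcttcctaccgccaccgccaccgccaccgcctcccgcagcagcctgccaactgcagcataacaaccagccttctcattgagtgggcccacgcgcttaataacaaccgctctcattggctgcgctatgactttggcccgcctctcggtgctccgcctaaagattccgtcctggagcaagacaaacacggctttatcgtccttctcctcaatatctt
Ndufa1: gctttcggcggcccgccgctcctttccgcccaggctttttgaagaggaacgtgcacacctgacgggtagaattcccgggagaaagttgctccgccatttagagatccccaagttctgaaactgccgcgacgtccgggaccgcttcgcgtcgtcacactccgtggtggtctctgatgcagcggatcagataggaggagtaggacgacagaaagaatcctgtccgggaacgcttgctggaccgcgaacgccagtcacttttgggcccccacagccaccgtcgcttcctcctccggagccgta
Ndufa11: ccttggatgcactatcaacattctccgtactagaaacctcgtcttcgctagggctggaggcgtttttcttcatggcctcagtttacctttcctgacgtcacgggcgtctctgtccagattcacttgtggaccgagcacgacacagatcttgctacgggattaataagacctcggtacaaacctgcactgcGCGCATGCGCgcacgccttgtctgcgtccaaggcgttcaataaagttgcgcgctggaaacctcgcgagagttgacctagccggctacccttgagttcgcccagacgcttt
Ndufaf4: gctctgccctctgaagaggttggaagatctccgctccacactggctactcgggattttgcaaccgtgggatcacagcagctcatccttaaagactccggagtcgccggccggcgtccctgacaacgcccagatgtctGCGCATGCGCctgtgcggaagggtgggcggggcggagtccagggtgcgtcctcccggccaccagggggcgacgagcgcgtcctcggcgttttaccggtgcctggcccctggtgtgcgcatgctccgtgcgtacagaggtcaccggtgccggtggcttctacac

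The motifs searched were the NRF1 palindrome (GCGCA followed directly by TGCGC), its relaxed form (GCGCA, any base, GCGC), which includes the first, CCGGAAG for ETS factors and AAGATGGCG for YY1. The promoters of Ndufb3 and Ndufa1 held none of the 4. Those of Ndufa11 and Ndufaf4 each held the NRF1 palindrome, as did that of Ndufaf5, whose log2 fold change was -0.06. That motif was found in 1 of 32 subunit promoters, 2 of 7 assembly factor promoters and 1.07% of all 27025 genes with a promoter entry. The relaxed form was found in 7 of 32 subunit promoters (21.9%) and 5.19% of all, AAGATGGCG in 5 of 32 (15.6%) and 1.64% of all, and CCGGAAG in 4 of 32 (12.5%) and 9.93% of all. Among 30 promoters of complexes II to V, the palindrome was in 13.3%, the relaxed form in 33.3%, AAGATGGCG in 6.67% and CCGGAAG in 40%. These matches are a description of the letters in this window. The promoters printed were chosen by fold change, and a link between motif and fold change was not tested. Neither Ndufa11 (adjusted p = 0.633, edgeR) nor Ndufaf4 (adjusted p = 0.518, edgeR) was past the test.

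The core subunits of the N module take up electrons from NADH. Ndufv1, which holds the flavin and the NADH site, stood at 92.8, 89.0 and 124 CPM in controls and 89.7, 124 and 92.0 CPM in ANKO. The groups overlapped and had the same mean of 102 CPM, with a fold change of 1.00 (95% interval 0.760 to 1.32). Ndufv2, which carries an iron-sulphur cluster, stood at 56.4, 56.4 and 75.8 CPM in controls and 62.8, 72.5 and 63.0 CPM in ANKO. Ndufs1, which holds further iron-sulphur clusters and is the largest subunit, stood at 82.4, 80.0 and 116 CPM in controls and 81.9, 98.8 and 84.3 CPM in ANKO. Their fold changes were 1.05 (95% interval 0.852 to 1.30) and 0.953 (0.745 to 1.22). In each of these 3 genes control 3 was the highest of the controls and ANKO 2 the highest of the ANKO libraries.

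The core subunits of the Q module lead the electrons to ubiquinone. Ndufs7, which carries the last iron-sulphur cluster, stood at 59.6, 61.4 and 72.6 CPM in controls and 66.4, 77.4 and 63.4 CPM in ANKO (fold change 1.07, 95% interval 0.896 to 1.28). Ndufs8, a further iron-sulphur subunit, stood at 38.3, 38.9 and 54.1 CPM in controls and 38.7, 46.4 and 41.7 CPM in ANKO (fold change 0.965, 0.762 to 1.22). For both the groups overlapped. Ndufs3, a scaffold of the module, had the lowest fold change of the 7 core subunits, 0.871 (0.702 to 1.08), from 50.1 ± 2.99 to 43.7 ± 7.96 CPM. The 95% intervals of all 7 core subunits lay within 1.5-fold of no change in either direction.

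The log2 fold changes ran from -0.66 to 0.19 over 29 accessory subunits and from -0.20 to 0.10 over 7 core subunits. A range tends to widen with the number of genes, so these 2 are not compared. The quartiles were -0.19 and -0.02 for accessory subunits and -0.08 and 0.04 for core subunits. In the N module the lowest were Ndufa2, which has a thioredoxin-like fold (42.8 ± 5.98 in controls and 35.4 ± 5.89 CPM in ANKO, log2 fold change -0.27), and Ndufa7 (47.3 ± 4.29 and 40.8 ± 5.05 CPM, -0.21). Ndufs4, which is needed for a stable N module, stood at 31.9 ± 3.65 and 30.3 ± 5.97 CPM (-0.07). In the distal membrane arm Ndufb4 stood at 23.1 ± 2.07 and 20.3 ± 1.11 CPM (-0.19). Adjusted p values of these 4 genes were 0.505, 0.517, 0.910 and 0.556 with edgeR, and their groups overlapped. By module the median log2 fold change was -0.09 for 10 subunits of the N module, -0.07 for 6 of the Q module, -0.10 for 9 of the proximal and -0.13 for 10 of the distal membrane arm, where Ndufab1, the acyl carrier protein found in both arms, is left out. Over all 36 subunits, 31 intervals lay within 1.5-fold and 36 within 2-fold of no change, where 44.1% and 67.2% of all genes tested did. For the nuclear subunits of complexes II to V these shares were 67.6% and 100%. The median SE was 0.136 for complex I subunits, 0.152 for those of complexes II to V and 0.186 over all genes tested. Among complex I subunits the exceptions at 1.5-fold were Ndufb3, Ndufa3, Ndufa1, Ndufa2 and Ndufb6, named after their values were seen.

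**Figure D2:**
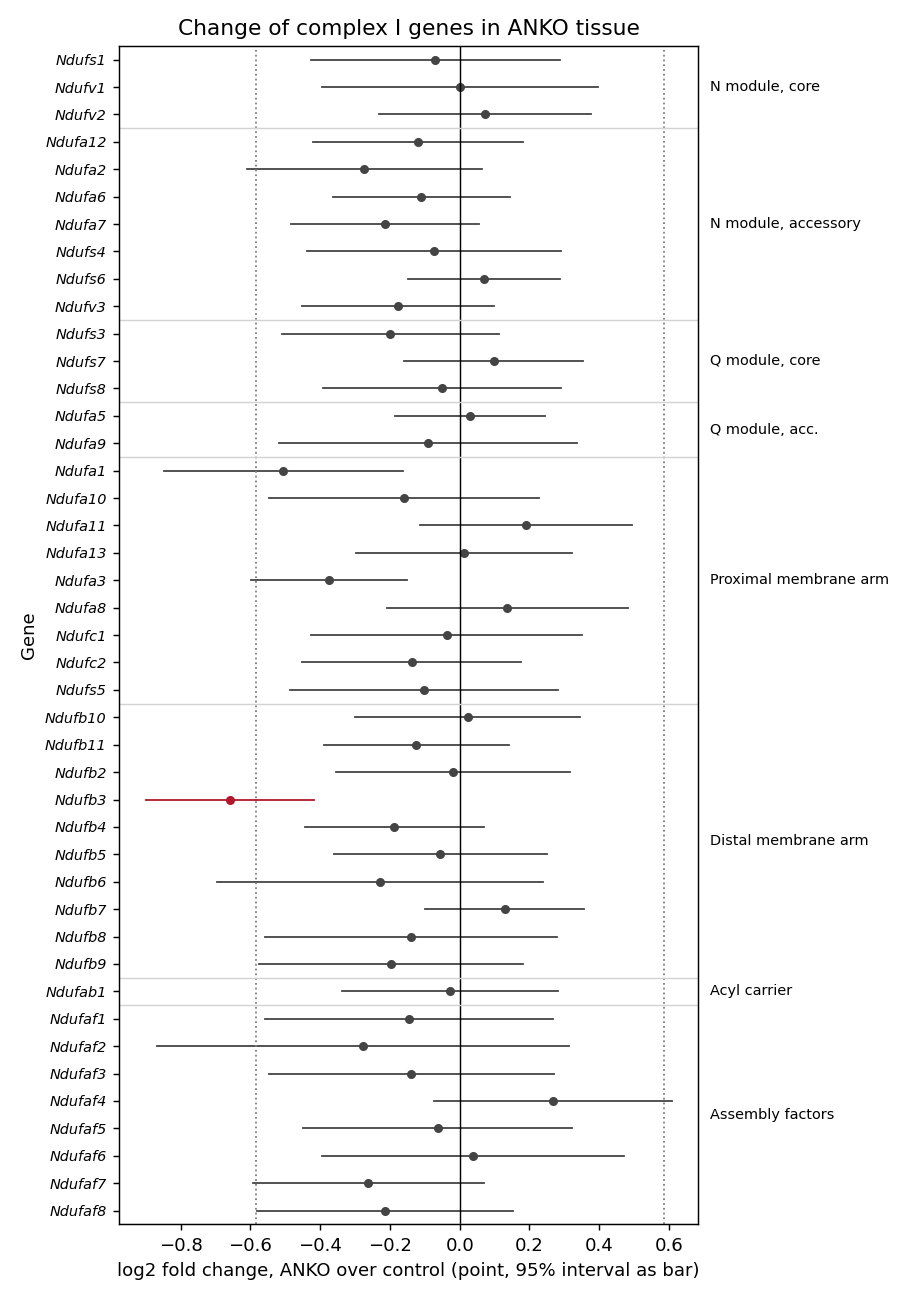
Log2 fold change of ANKO over control (horizontal axis, point with 95% interval) for 35 complex I subunits and 8 assembly factors, ordered by module. Dotted lines mark 1.5-fold, and red marks the one gene with an adjusted p under 0.05, Ndufb3.

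Subunit transcripts varied together from library to library. Each subunit was set against its own mean over the 6 libraries on the log2(CPM + 0.5) scale. The median of these differences was -0.09, -0.08 and 0.26 in the controls and -0.11, 0.14 and -0.14 in the ANKO libraries. Control 3 lay above the gene's own mean for 35 of 36 subunits and ANKO 2 for 32, while ANKO 1 did so for 2 and ANKO 3 for 3. The highest library was control 3 for 26 subunits and ANKO 2 for 9, the exception being Ndufb2 with control 1. Summed over the 36 genes, the level was 1767, 1775 and 2273 CPM in controls and 1708, 2066 and 1690 CPM in ANKO. The sign of the median rested on control 3: without that library 13 of 36 subunits had a log2 fold change below 0, in place of 26, and their median was 0.05. The nuclear subunits of complexes II to V showed the same library order at the top, with 36 of 37 highest in control 3 or ANKO 2, a median log2 fold change of -0.13, and none past the test with edgeR or limma-voom (1 lower with DESeq2, and 4 lower at an unadjusted p under 0.05 with edgeR). The muscle share was largest in ANKO 1, which had 2 subunits above their own mean, and smallest in ANKO 3, which had 3, while among controls it was largest in control 3, as were most subunits. With the muscle signal as a covariate the median log2 fold change of the subunits was -0.05. The adipocyte marker sum was highest in control 3 among controls and in ANKO 2 among ANKO libraries, as were the subunits; its part in the subunit levels was not tested.

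**Figure D3:**
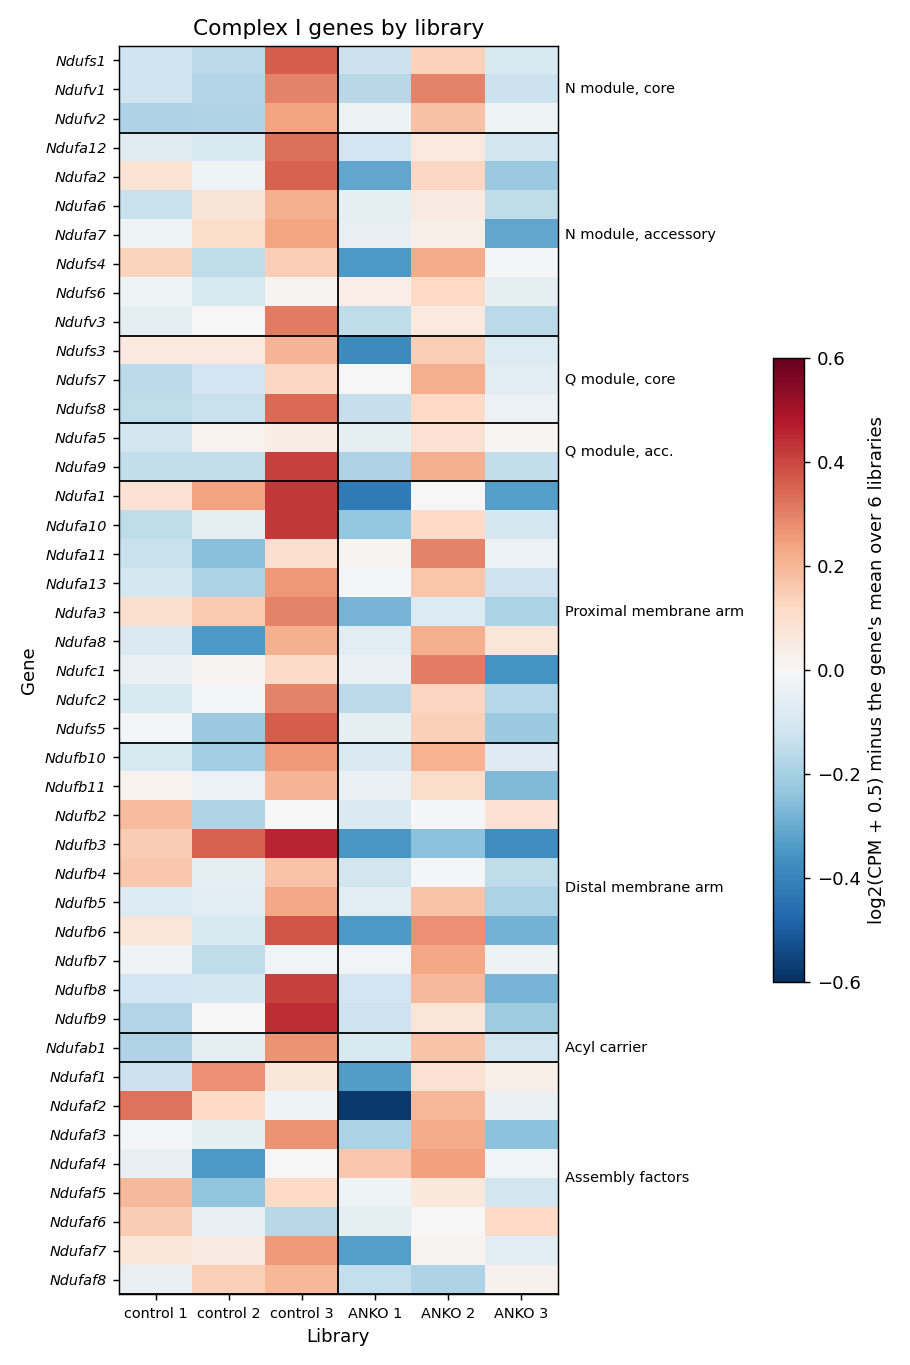
Log2(CPM + 0.5) of 43 complex I genes in each library minus the gene's mean over the 6 libraries (colour scale from -0.6 to 0.6, red higher), with genes in rows by module. Control 3 and ANKO 2 are above the gene's own mean for most subunits, and Ndufb3 is blue in every ANKO library, ANKO 2 included.

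Relative to the median subunit of the same library, Ndufb3 lay at -0.14, -0.05 and -0.15 in controls and -0.53, -0.69 and -0.66 in ANKO on the log2 scale. Such a level takes out the shared variation, but the median subunit was itself lower in ANKO on average, which shifts genes upward in ANKO. Ndufv1, with a log2 fold change of 0.00, differed by 0.13 between the group means by this measure. The groups also did not overlap for Ndufa1 and Ndufa3, which were lower in ANKO by this measure, and for Ndufa11, Ndufa8, Ndufv2, Ndufs7 and Ndufa5, which were higher, all named after their values were seen. These are 3 lower and 5 higher of 36, against 4.56% lower and 13.8% higher (18.4% in either direction) over all genes on the same scale. The differences between the group means were -0.51 for Ndufb3, -0.37 for Ndufa1 and -0.24 for Ndufa3, and 0.16 to 0.32 for the 5 that were higher. In CPM the groups of these 5 overlapped. The level relative to the median subunit was not tested.

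Levels of subunits differed widely per length of the principal transcript. The lowest was 4.73 CPM per kb (Ndufb2), the median 48.3 and the highest 161 (Ndufb9). Next to Ndufb9 stood Ndufb8 at 91.2 CPM per kb, and above Ndufb2 stood Ndufs4 at 18.3 and Ndufb4 at 22.3 CPM per kb. Per kb of all annotated exons the order shifted, and Ndufb8 stood at 19.7. The fold changes of the 5 genes named here lay between 0.872 and 0.988. Within groups the coefficient of variation of the 36 subunits had a median of 14.2% in controls and 11.6% in ANKO.

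Assembly factors stood at 3.52 to 9.32 CPM per kb of principal transcript (median 7.21), a range in which Ndufb2 was the one subunit, and their median log2 fold change was -0.14. Ndufaf4, which with Ndufaf3 serves the Q module, had the highest fold change, at 12.3, 9.88 and 12.6 CPM in controls and 14.2, 15.1 and 12.5 CPM in ANKO. This was 0.27 on the log2 scale (SE 0.147, adjusted p = 0.518, edgeR), and ANKO 3 lay within the range of the controls. Ndufaf7, a methyltransferase that acts in complex I assembly, stood at 13.1, 12.9 and 14.9 CPM in controls and 9.75, 12.5 and 11.8 CPM in ANKO. It was the 1 assembly factor of 8 whose groups did not overlap (log2 fold change -0.26, SE 0.144, adjusted p = 0.518, edgeR), against 19.4% of all genes in either direction. Ndufaf8, the partner of Ndufaf5, averaged 7.82 ± 0.727 CPM in controls against 6.74 ± 0.568 CPM in the knockouts, and Ndufaf2, a late-acting factor of the N module, averaged 5.40 ± 0.723 and 4.46 ± 1.30 CPM. The groups of both overlapped. For Ndufaf2, 1955 exonic bases overlap the lincRNA B230220B15Rik on the other strand, and reads of the 2 cannot be told apart without strand. The 95% intervals of 5 of 8 assembly factors lay within 1.5-fold and all 8 within 2-fold of no change.

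Of 11 assembly factors under other symbols, none was past the test with edgeR, DESeq2 or limma-voom. At an unadjusted p under 0.05, 2 were lower with each tool, where 6.90% of all genes were lower with edgeR. Tmem126b, a factor of the membrane arm, stood at 16.9, 15.5 and 19.5 CPM in controls and 12.5, 13.0 and 12.6 CPM in ANKO (log2 fold change -0.45, SE 0.127, adjusted p = 0.165, edgeR). Its groups did not overlap. The other was Foxred1, named after its value was seen, at 34.3 ± 3.29 and 25.2 ± 3.45 CPM (log2 fold change -0.44, adjusted p = 0.176, edgeR), again without overlap. Acad9, also named after its value was seen, had no overlap either, at 44.1 ± 1.23 and 40.2 ± 2.74 CPM (log2 fold change -0.13, adjusted p = 0.597, edgeR). Groups thus did not overlap for 3 of 11, all lower, against 10.2% of all genes lower.

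The mt-Nd genes, which encode the core subunits of the membrane arm, are 7 in number. Of these, none was past the test with edgeR, DESeq2 or limma-voom, while 3 were higher at an unadjusted p under 0.05 with edgeR and DESeq2 and 2 with limma-voom, where 6.03% of all genes were higher with edgeR. The median log2 fold change was 0.17. The smallest p was that of mt-Nd2, at 2140, 1903 and 2522 CPM in controls and 2473, 3710 and 2806 CPM in ANKO (log2 fold change 0.45, SE 0.180, adjusted p = 0.338, edgeR). The control and ANKO values overlapped, as did those of the other mt-Nd genes. Summed over the 7 genes, the level was 11776, 11099 and 14721 CPM in controls and 11914, 17968 and 13972 CPM in ANKO. The summed mt-Nd level divided by that of the 36 nuclear subunits was 6.66, 6.25 and 6.48 in controls and 6.97, 8.70 and 8.27 in ANKO. The groups of the mt-Nd sum overlapped, while those of the ratio did not, and the ratio was not tested. It was carried unevenly by the 7 genes: per nuclear subunit CPM, mt-Nd2 averaged 1.13 ± 0.0722 in controls and 1.63 ± 0.176 in ANKO, while mt-Nd6, the one encoded on the opposite strand of the mitochondrial genome, averaged 0.308 ± 0.0162 and 0.282 ± 0.0134. Relative to the median subunit, groups did not overlap for 3 of 7, mt-Nd1, mt-Nd2 and mt-Nd3, all higher, against 13.8% of all genes higher on this scale.

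**Figure D4:**
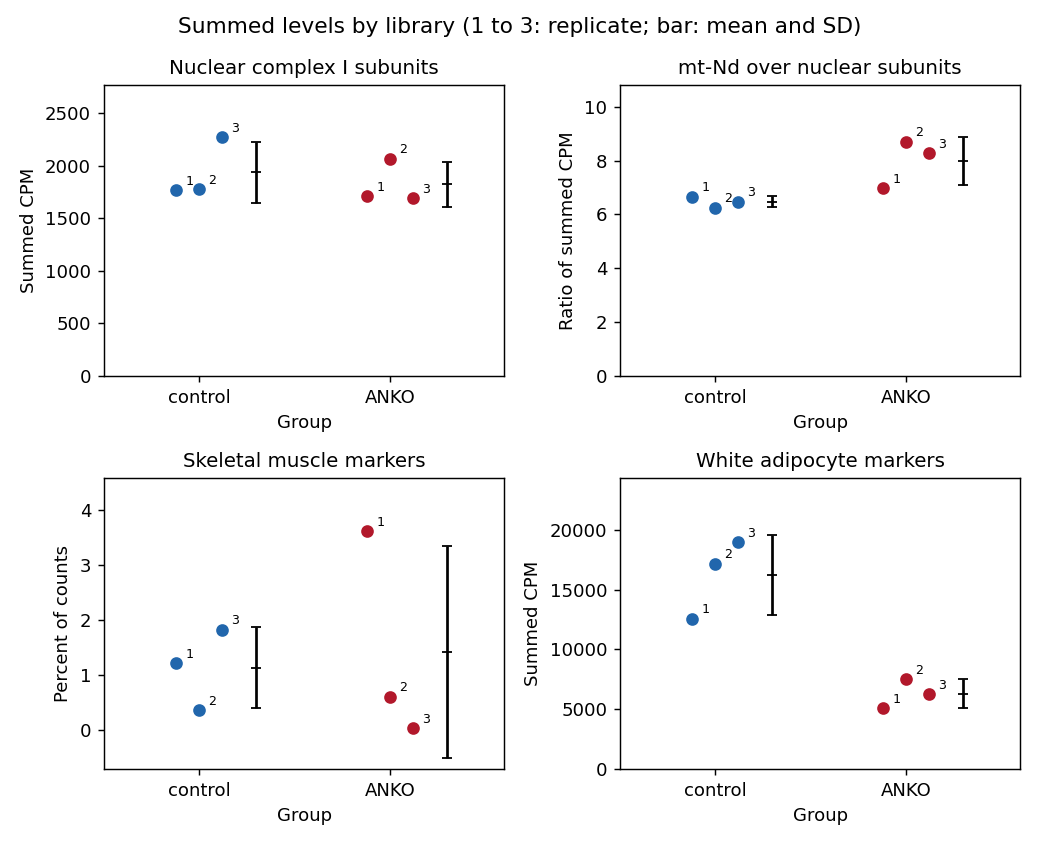
Summed CPM of 36 nuclear complex I subunits, ratio of summed mt-Nd to summed nuclear subunit CPM, percent of counts in 19 skeletal muscle markers and summed CPM of 10 white adipocyte markers, in each library (points, numbered by replicate) with mean and SD (n = 3). The ratio and the adipocyte sum do not overlap between groups, the subunit sum and the muscle share do.

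Among the relatives, Ndufa4 stood at 60.0, 63.7 and 85.7 CPM in controls and 53.4, 69.9 and 55.8 CPM in ANKO (log2 fold change -0.23, SE 0.161, adjusted p = 0.649, edgeR). Ndufa4l2, known as a gene induced by hypoxia, stood at 4.07, 4.18 and 5.51 CPM in controls and 5.76, 5.46 and 5.16 CPM in ANKO (log2 fold change 0.25, SE 0.195, adjusted p = 0.681, edgeR). The groups of both overlapped, and per kb Ndufa4 had 122 CPM against 5.38 for Ndufa4l2. The pseudogenes had 0 to 32 counts per library. A list of 12 genes held shuttles of NADH electrons and other genes that handle NADH or NAD. None of them was past the test with edgeR, DESeq2 or limma-voom. At an unadjusted p under 0.05, 2 were higher and 0 lower with edgeR, and 2 higher and 1 lower with each of DESeq2 and limma-voom. Over all genes 6.03% were higher and 6.90% lower at that level with edgeR. The smallest p was that of Got1, the cytosolic aspartate aminotransferase of the malate-aspartate shuttle, at 18.0, 21.3 and 15.5 CPM in controls and 30.8, 25.9 and 22.4 CPM in ANKO (log2 fold change 0.53, SE 0.161, adjusted p = 0.197, edgeR). All its ANKO values lay above those of the controls, as held for 2 of the 12 genes, against 9.19% of all genes. Mdh1, named after its value was seen, had the lowest fold change of the list (log2 fold change -0.46, adjusted p = 0.393, edgeR). Its groups overlapped.

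The counts of some members are uncertain. Exons of 14 subunits overlap a gene on the other strand and those of 3 a gene on the same strand, and 8 subunits have a near-identical copy elsewhere among annotated transcripts (at least 95% identity over at least 200 bases), which leaves 16 with none of these. No line of the table carried the symbol of the subunit Ndufb1, which is not analysed here.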

How the data were processed

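The authors deposited raw read counts per gene symbol, 1 column per mouse. STAR 2.0.4b, featureCounts 1.45, Subread and build GRCm38 are listed in the submitters' processing notes; annotation, strand setting and handling of multi-mapping reads were not given in the sources used here. Per the labels' protocols, RNA was Qiazol-extracted and ribosomal RNA depleted with Ribo-Zero Gold. Groups came from the sample titles. Exact repeat lines (329 of 40757) were dropped. The test was that of edgeR 4.0.16 (R 4.3.3) on all genes kept by filterByExpr (19272; minimum count 10, minimum total count 15), with TMM scaling and a robust quasi-likelihood F test, and adjusted by Benjamini-Hochberg over all of them with a threshold of 0.05. Standard errors (SE) were derived from the log2 fold change and its F value, and intervals are 95%. p-values measure the spread between 3 mice per group. Alternatives were other scalings, filters, DESeq2 1.42.0, limma-voom (limma 3.58.1), a replicate block, a muscle covariate and leaving out each library. The fit was also run on counts simulated from its own dispersions, with independent genes. Such a run cannot show how well the test suits these data. Positions, lengths and overlaps are from GENCODE M21 (GRCm38); copies were searched with blastn 2.17.0. The length used is that of the APPRIS principal transcript. The members and lists were chosen with earlier results of these data known. Named genes were Nampt, called members, the 6 subunits and 4 assembly factors with the smallest p, the 7 nuclear core subunits, Ndufa4, Ndufa4l2, the 3 highest and 3 lowest subunits per length, and the gene with the smallest p in the mt-Nd, other assembly factor and shuttle lists; 1 subunit that the rule names is counted in the lists and sums but is not reported here. Lists of brown adipocyte (10 genes; 1 higher with edgeR, 2 higher and 1 lower with DESeq2, 0 with limma-voom; 2 higher and 3 lower at an unadjusted p under 0.05 with edgeR), endothelial (0 of 6 called, 2 lower at an unadjusted p under 0.05 with each of edgeR, DESeq2 and limma-voom) and fibroblast markers (0 of 7 called with edgeR, 3 higher at an unadjusted p under 0.05; 2 called with DESeq2, 0 with limma-voom) were measured as well.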

Additional observations from a re-analysis of the deposited data

How the results depend on the processing

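The 1 subunit called lower, Ndufb3, was called under RLE and upper-quartile scaling, DESeq2, limma-voom, robust=FALSE and both other filters, with adjusted p = 0.000186 to 0.0418. No subunit was called with the replicate block (0 lower, Ndufb3 at adjusted p = 0.0586) or the skeletal muscle covariate (0 lower), and 0 to 1 with a library left out, where Ndufb3 had log2 fold changes of -0.74 to -0.58. The replicate numbers were not taken to pair the mice, since deviations of same-numbered libraries correlated at 0.0746, -0.0333 and -0.0435, and the covariate fit and the fits on 5 libraries have fewer residual degrees of freedom. Over all genes, 306 were called, against 851 with DESeq2, 464 without the low-count filter, 207 with the replicate block, 161 with the muscle covariate and 75 to 256 with a library left out. No subunit was called higher and no assembly factor was called under any setting. The median log2 fold change of subunits ranged from -0.21 without ANKO 2 to 0.05 without control 3, and that of assembly factors from -0.20 to -0.05. The log2 fold change of Ndufv1 turned to -0.0039 with upper-quartile scaling and -0.00029 with the replicate block, from a value at 0. With a library left out, the log2 fold change of 3 to 14 of the 49 members changed sign, 14 of them without control 3 and 7 without control 1. Among the named genes these were Ndufv1 (-0.16 to 0.18), Ndufv2 (-0.00029 to 0.24), Ndufs1 (-0.17 to 0.13), Ndufs8 (-0.14 to 0.14), Ndufb9 (-0.32 to 0.0133), Ndufb8 (-0.28 to 0.0653), Ndufb2 (-0.11 to 0.0860) and Ndufs4 (-0.22 to 0.0839), none of which was called in any fit; the cause was not tested. With 3 mice per group the 95% intervals of the subunits' log2 fold changes were 0.433 to 0.937 wide.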
